A study of Mus musculus with 8 samples.

Results

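The matrix metalloproteinases (MMPs) are zinc-dependent enzymes that cut the proteins of the extracellular matrix, and 10 of their genes are described here gene by gene in the mouse limbus and cornea. They are the collagenase gene Mmp13, the gelatinase genes Mmp2 and Mmp9, the stromelysin genes Mmp3, Mmp10 and Mmp11, the macrophage elastase gene Mmp12, the membrane-type genes Mmp14 and Mmp15, and Mmp19. The genes were chosen by symbol, and each symbol names 1 row among the 23420 rows of the expression table that carry a gene name, 23 of which are MMP genes. Both groups came from wild type C57BL/6J young adult mice and received no treatment. The Cornea group is the corneal button, the clear central part of the cornea, and the Limbus group is the limbal rim, the ring where the cornea meets the sclera and conjunctiva and where the epithelial stem cells of the cornea reside. Tissue of several eyes was pooled before RNA extraction, stranded total RNA libraries were sequenced on an Illumina NextSeq, and a rim dissected in this way holds epithelium, stroma, vessels and neighboring tissue together. The labels number 4 samples a tissue, L001 to L004, a numbering also used for sequencing lanes, but the values go back to 1 library per tissue, so there is no spread between replicates and no test across replicates was possible.

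MMPs are made as inactive precursors whose prodomain blocks the catalytic zinc until it is cut away, by plasmin, by furin-like convertases or by another MMP. Tissue inhibitors of metalloproteinases (TIMPs) then block the active enzymes. Membrane-type MMP14 together with TIMP2 activates the precursor of MMP2, and stromelysin 1 (MMP3) activates the precursors of several others, among them MMP9. In the cornea, MMPs are known for the turnover of stroma and basement membrane after wounding, and gelatinase activity is associated with epithelial erosions and ulcers. Messenger RNA was measured here, and not the activation or inhibition of the enzymes.

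The limbus held more Mmp3, Mmp9, Mmp11, Mmp12, Mmp15, Mmp2 and Mmp19 reads than the cornea, the cornea held more Mmp10 reads, and Mmp14 and Mmp13 did not differ beyond counting error. Mmp3, which encodes stromelysin 1, had the largest difference of the 10 genes, with 26 corneal and 8779 limbal reads, 361-fold higher in the limbus after normalization. Mmp14 was the gene with the most reads in the cornea and was nearly level between the tissues, with 4339 and 4187 reads. Of the 10 genes, 7 were at least 2-fold higher in the limbus, against 20.8% of 15572 genes that exceeded 3 reads in a library, and 1 was at least 2-fold higher in the cornea, against 8.84% of those genes. By the exact 95% interval of counting error, 7 were higher in the limbus, where 35.5% of the 15572 genes were, and 1 in the cornea, where 36.7% were. The median log2 ratio of limbus over cornea was 1.71 for the 10 genes and 0.01 for the 15572 genes. Scaling to total reads raised every log2 ratio by 0.21, which put Mmp14 and Mmp13 beyond counting error on the limbal side as well. By this scaling 9 genes counted as higher in the limbus and 1 still counted as higher in the cornea. It also moved the share of all 15572 genes with a ratio on the limbal side from 50.6% to 61.6%. The share of all genes beyond counting error was not computed for it.

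**Figure D1:**
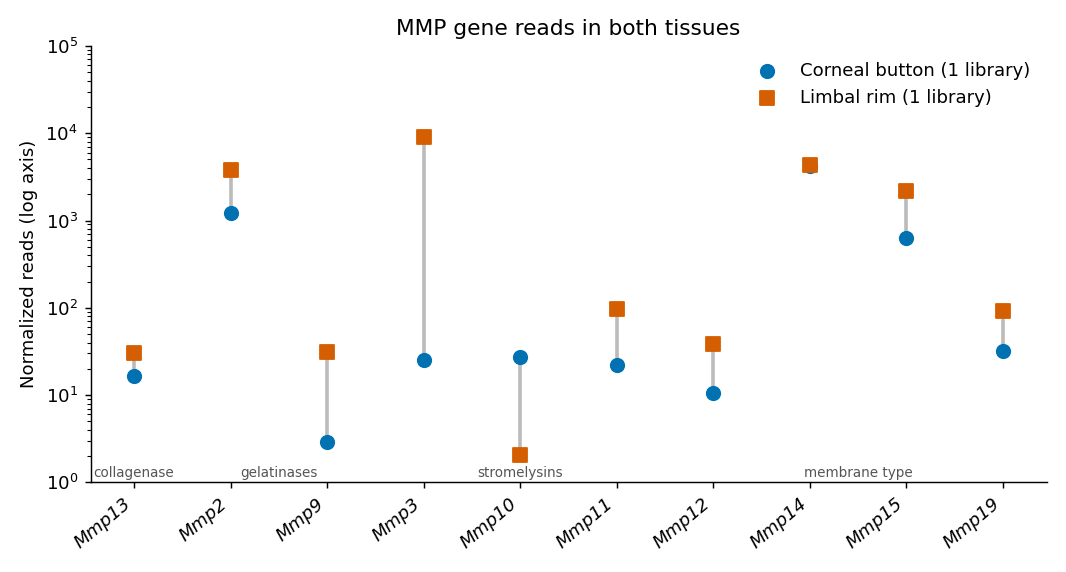
Normalized reads of each MMP gene (y axis, log scale) in the corneal button (circles) and the limbal rim (squares), 1 library each, with a gray line joining the 2 values of a gene. Mmp3 spans the widest gap, from 25.2 to 9075, the points of Mmp14 lie on top of each other, and Mmp10 is the gene whose corneal point lies above its limbal point.

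Values are reads divided by a size factor for each library, 1.03 for the cornea and 0.967 for the limbus, and ratios are limbus over cornea. The reads are not a deposited count table but were worked back from the deposited mean signal of both tissues. For Mmp2, Mmp3, Mmp14 and Mmp15 that mean allows several pairs of read numbers, and the pair closest to the deposited comparison was taken. The next best pair, which missed it by 0.0039 or more where the chosen pair missed by at most 5.9e-05, would give log2 ratios of 6.06 for Mmp2, 6.10 for Mmp3, 0.26 for Mmp14 and 4.76 for Mmp15. Reads on named genes numbered 26104317 in the corneal library and 21182025 in the limbal library. Intervals are exact Clopper-Pearson intervals at the 95% level. They cover counting error only, since there is 1 library per tissue, and they say nothing of the spread between animals. Reads copied by PCR are not independent molecules, and no use of molecular identifiers is described. The intervals can therefore be too narrow even for counting error. The corneal epithelial markers Krt12, Aldh3a1, Pax6, Slurp1 and Tkt were all higher in the library labelled Cornea, with log2 ratios from -2.55 to -0.69. The 6 limbal and conjunctival keratins (Krt15, Krt14, Krt13, Krt4, Krt19 and Krt8) were all higher in the library labelled Limbus, from 1.86 to 5.16. The direction of the deposited comparison was itself set from genes that the study assigns to a tissue, keratins among them, so these markers describe the libraries and are no independent check of the labels. In such bulk libraries, fewer cells of a type and less RNA per cell cannot be told apart.

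MMP13 is the main collagenase of the mouse and cuts fibrillar collagen. Mmp13 (chromosome 9, 7272514 to 7283331, plus strand, GRCm38) counted 17 corneal and 29 limbal reads, or 16.4 and 30.0 normalized reads. Its log2 ratio was 0.87 with an interval from -0.05 to 1.82 that includes 0, and no difference could be detected with so few reads. With scaling to total reads its log2 ratio was 1.07. Messages of the collagenase class named here (Mmp13, Mmp8, Mmp1a and Mmp1b) were rare in both libraries. Mmp8, the neutrophil collagenase gene, and Mmp1a were listed at 0 in both, and Mmp1b had 1 corneal read and 0 limbal reads. Membrane-type and other MMPs are not part of this class. A count of 0 does not show that a message is absent from the tissue.

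The gelatinases MMP2 and MMP9 cut denatured collagen and the type IV collagen of basement membranes. Mmp2 (chromosome 8, 92827291 to 92853420) counted 1275 corneal and 3637 limbal reads, or 1233 and 3760 normalized reads. It was 3.05-fold higher in the limbus (95% interval 2.86 to 3.25). Mmp9 (chromosome 2, 164940780 to 164955850) counted 3 corneal and 30 limbal reads, 10.7-fold higher in the limbus, with an interval from 3.32 to 54.7 that is wide because of the 3 corneal reads. The interval of Mmp9 begins just above the end of that of Mmp2, a narrow gap. With a pseudocount of 10 normalized reads the log2 ratios were close, 1.67 for Mmp9 and 1.60 for Mmp2. With the next best pair of read numbers Mmp2 would have 6.06, above the 3.42 of Mmp9, so the order of these ratios is not settled. Mmp2 supplied nearly all gelatinase reads in both libraries.

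The stromelysins MMP3 and MMP10 cut proteoglycans, fibronectin, laminin and other noncollagenous matrix, and MMP11 differs from them in being activated by furin inside the cell. Mmp3 (chromosome 9, 7445822 to 7455975) had 25.2 corneal and 9075 limbal normalized reads, a log2 ratio of 8.50 (95% interval 7.94 to 9.11). Among 13862 genes that exceeded 3 reads in each library, 4 had a higher ratio, namely Alox12e, Pvalb, Myh4 and Tnnt3, the last 3 of which are genes of skeletal muscle. These 4 genes were picked by their values. The corneal value of Mmp3 rests on 26 reads, and the limbal value on 8779.

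Mmp10 (chromosome 9, 7502352 to 7510240), which encodes stromelysin 2, went the other way. It counted 28 corneal and 2 limbal reads, or 27.1 and 2.07 normalized reads. Its log2 ratio was -3.71 with an interval from -6.83 to -1.72, which lies wholly on the corneal side, and with the 2 limbal reads set to 3 the log2 ratio was -3.13. In the cornea the reads of Mmp3 and Mmp10 were close in number, 26 and 28, whereas the limbus held 8779 reads of the former and 2 of the latter. The transcripts of Mmp3 and Mmp10 in the annotation share 65 stretches of 75 bases, which is 3.76% of the stretches of Mmp3 and 3.94% of those of Mmp10, and reads from these stretches could have been counted for either gene. Apart from this pair, no 2 of the 10 genes shared a stretch of 75 bases.

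Mmp11 (chromosome 10, 75923222 to 75936496, minus strand) counted 23 corneal and 94 limbal reads, or 22.2 and 97.2 normalized reads, 4.37-fold higher in the limbus (95% interval 2.74 to 7.22). Chchd10 overlaps Mmp11 on the opposite strand, with 238 and 499 reads, and 2.79% of the stretches of Mmp11 occur in its transcripts. The library kit keeps strand, but whether the counting used it is not given in the sources used here. The 3 stromelysin genes therefore gave 3 patterns, with Mmp3 and Mmp11 higher in the limbus by very different amounts and Mmp10 higher in the cornea.

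MMP12, the macrophage elastase, cuts elastin. Mmp12 (chromosome 9, 7344381 to 7369499) counted 11 corneal and 37 limbal reads, or 10.6 and 38.2 normalized reads. It was 3.59-fold higher in the limbus (95% interval 1.80 to 7.81). Mmp1b overlaps it on the opposite strand with 1 and 0 reads, and 1.16% of the stretches of 75 bases of Mmp12 occur in transcripts of other genes. For all 7 macrophage markers in the table the limbus was also higher beyond counting error, as it was for 35.5% of all 15572 genes. The summed normalized reads of these markers were 885 (cornea) and 3643 (limbus). The part of macrophages in the Mmp12 difference was not tested. Eln, the elastin gene, counted 3 corneal and 924 limbal reads, a log2 ratio of 8.36 (95% interval 6.81 to 10.6).

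The membrane-type MMPs stay anchored in the plasma membrane and cut matrix at the cell surface. Mmp14 (chromosome 14, 54431612 to 54445364), the best known of them, had 4197 corneal and 4328 limbal normalized reads. Its log2 ratio of 0.04 had the narrowest interval of the 10 genes, from -0.02 to 0.11, and a 2-fold difference in either direction lies outside it. Scaled to total reads its log2 ratio was 0.25. Mmp15 (chromosome 8, 95352268 to 95375080) counted 649 corneal and 2120 limbal reads, or 628 and 2192 normalized reads, 3.49-fold higher in the limbus (95% interval 3.20 to 3.82). The intervals of the 2 membrane-type genes lie apart.

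MMP19 cuts proteins of the basement membrane and stands outside the older classes of MMPs. Mmp19 (chromosome 10, 128790910 to 128800824) counted 33 corneal and 89 limbal reads, or 31.9 and 92.0 normalized reads, 2.88-fold higher in the limbus (95% interval 1.91 to 4.44). Tmem198b overlaps Mmp19 on the opposite strand with 185 and 221 reads, and 23.2% of the stretches of 75 bases of Mmp19 also occur in Tmem198b or in the antisense gene Gm47093. Without strand, reads from these stretches cannot be told apart. The intervals of Mmp2, Mmp11, Mmp12, Mmp15 and Mmp19 all hold the span from 3.20-fold to 3.25-fold, whereas the interval of Mmp3 runs from 246-fold to 553-fold.

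**Figure D2:**
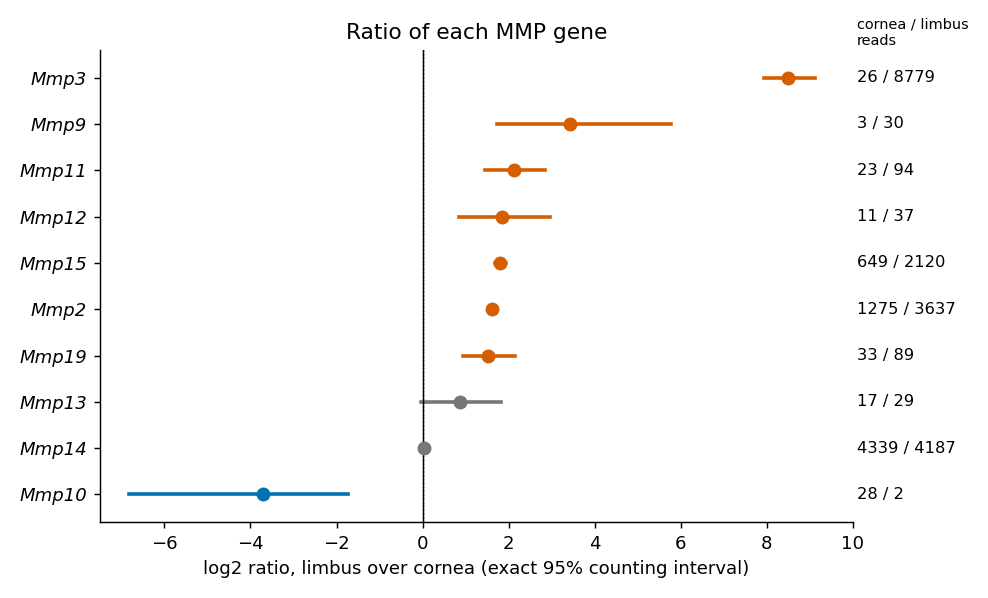
Log2 ratio of limbus over cornea of each MMP gene (x axis) with its exact 95% counting interval, in order of the ratio, with the reads in cornea and limbus at the right and a dotted line at the median of 15572 genes. The point of Mmp3 at 8.50 stands far from the others, the intervals of Mmp13 and Mmp14 include 0 and with scaling to total reads lie above it, and the interval of Mmp10 lies wholly below 0.

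To compare genes with each other, normalized reads were divided by the length of each gene's merged exons in kb. In the cornea the order of levels per kb was Mmp14 with 704, Mmp2 with 366, Mmp15 with 116, Mmp10 with 15.7, Mmp3 with 14.0, Mmp19 with 9.04, Mmp11 with 8.01, Mmp13 with 6.15, Mmp12 with 1.47 and Mmp9 with 0.820. In that order, neighbors from Mmp10 down to Mmp13 did not differ beyond counting error, and neither did Mmp12 and Mmp9. In the limbus the order was Mmp3 with 5039, Mmp2 with 1115, Mmp14 with 726, Mmp15 with 406, Mmp11 with 35.0, Mmp19 with 26.0, Mmp13 with 11.2, Mmp9 with 8.76, Mmp12 with 5.29 and Mmp10 with 1.20. There the neighbors Mmp11 and Mmp19, Mmp13 and Mmp9, and Mmp9 and Mmp12 did not differ beyond counting error. With the longest transcript as the length, Mmp14 (1337 per kb) stood above Mmp2 (1221 per kb) in the limbus, so the order of this pair there depends on the length used. In the cornea Mmp11 (9.72 per kb) and Mmp19 (9.38 per kb) changed places in the same way, and the other genes kept their places.

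Mmp3 thus took the fifth place in the cornea and the first in the limbus, and Mmp10 the fourth and the last. As a share of the summed level per kb of the 10 genes, Mmp3 made up 1.12% in the cornea and 68.3% in the limbus. Mmp14 made up 56.7% and 9.85%, Mmp2 29.5% and 15.1%, and Mmp15 9.37% and 5.51%, so that these 3 genes held most of the corneal level. In plain reads, Mmp3 was 0.406% (95% interval 0.265% to 0.594%) of the 6404 corneal reads of the 10 genes and 46.2% (45.5% to 46.9%) of the 19004 limbal ones. The 10 genes together were 3.17-fold higher in the limbus in normalized reads, and the 9 genes without Mmp3 were 1.71-fold higher.

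**Figure D3:**
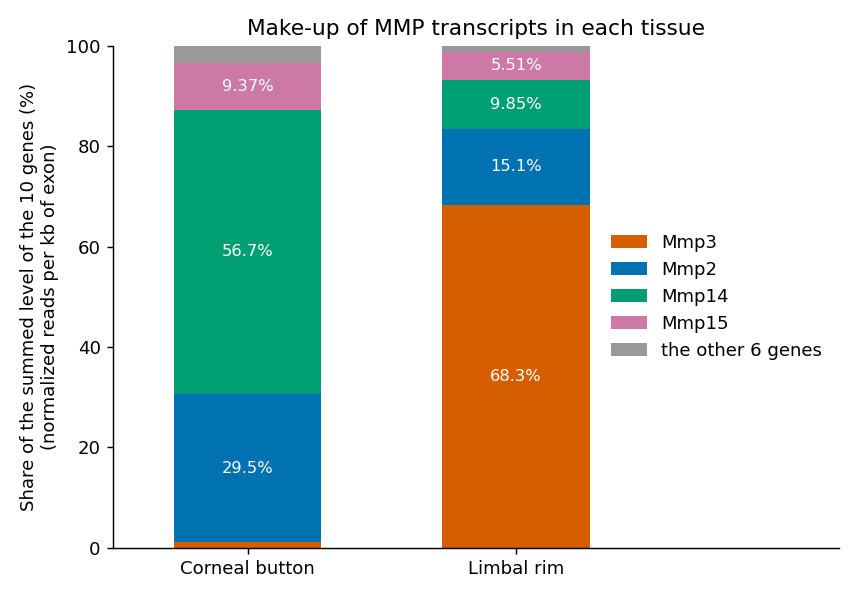
Share of each MMP gene in the summed level of the 10 genes (y axis, percent of normalized reads per kb of exon) in the corneal button and the limbal rim, 1 library each. Mmp14 and Mmp2 fill most of the corneal bar, whereas Mmp3 fills 68.3% of the limbal bar.

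Mmp3, Mmp10, Mmp12 and Mmp13 lie in a cluster of 10 MMP genes on chromosome 9 that spans 427 kb and also holds Mmp1a, Mmp1b, Mmp7, Mmp8, Mmp20 and Mmp27. Mmp10 starts 46.4 kb past the end of Mmp3 on the same strand. Mmp3 and Mmp10, with Mmp1a between them, thus had ratios in opposite directions. Of the 6 cluster genes outside the described 10, Mmp27 was higher in the limbus beyond counting error, with 1 corneal and 13 limbal reads (log2 ratio 3.80, 95% interval 1.06 to 9.21). Mmp7 had 0 and 4 reads, which is within counting error, Mmp20 had 2 and 0, and the remaining cluster genes are given above.

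**Figure D4:**
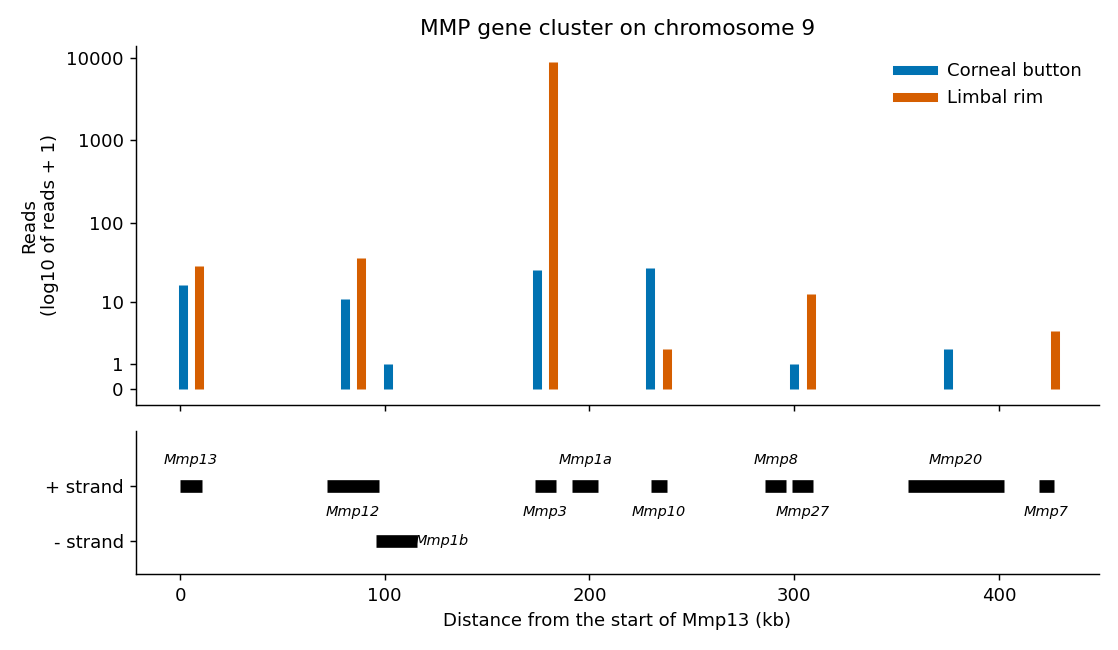
Reads of the MMP genes of the chromosome 9 cluster in both libraries (upper panel, y axis as log10 of reads + 1) above a map of the genes by strand (lower panel, x axis in kb from the start of Mmp13). The limbal bar of Mmp3 reaches 8779 reads while no other bar in the cluster passes 37 reads.

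For 7 of the 10 genes the RefSeq promoter table of GRCm38.p6 held the 300 bases from 250 before to 50 after a start site, with 2 start sites for Mmp12. The AP-1 motif TGANTCA, bound by Fos and Jun family factors, and the TATA box letters TATAAA were searched on both strands. Both motifs were found for Mmp3, Mmp10, Mmp13 and the second start of Mmp12, all in the cluster, and neither for Mmp11, Mmp14, Mmp15 or the first start of Mmp12. Of all 32851 promoters, 7.81% hold the AP-1 letters in these 300 bases, 13.6% hold TATAAA and 1.54% hold both. The 150 bases before the start are shown for the 3 cluster genes with both motifs there, because Mmp3 and Mmp10 have like motifs and opposite ratios, and for Mmp14 as a gene without them that was level between the tissues. Capitals mark the AP-1 letters, which come first, and the TATA letters. The windows are plus strand, chr9:7445672-7445821 for Mmp3, chr9:7502192-7502341 for Mmp10, chr9:7272364-7272513 for Mmp13 and chr14:54431448-54431597 for Mmp14.
Mmp3: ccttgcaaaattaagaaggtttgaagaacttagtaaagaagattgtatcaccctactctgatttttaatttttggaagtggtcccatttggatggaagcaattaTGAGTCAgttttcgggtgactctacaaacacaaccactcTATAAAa
Mmp10: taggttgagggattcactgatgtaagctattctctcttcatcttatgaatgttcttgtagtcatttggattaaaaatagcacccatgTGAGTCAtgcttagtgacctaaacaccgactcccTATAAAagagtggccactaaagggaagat
Mmp13: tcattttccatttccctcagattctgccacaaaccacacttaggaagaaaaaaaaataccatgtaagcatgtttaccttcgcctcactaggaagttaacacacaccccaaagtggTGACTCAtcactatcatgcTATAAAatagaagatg
Mmp14: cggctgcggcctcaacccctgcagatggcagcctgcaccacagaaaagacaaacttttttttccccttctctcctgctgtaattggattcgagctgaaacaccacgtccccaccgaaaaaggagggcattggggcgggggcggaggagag
The AP-1 letters begin 46 bases before the start in Mmp3, 63 in Mmp10 and 35 in Mmp13, and 44 before the second start of Mmp12. The sites of Mmp3 and Mmp10 read TGAGTCA and that of Mmp13 reads TGACTCA. The 4 promoters with both motifs had a GC content of 37.7% to 43.7% over 300 bases, the first start of Mmp12, with neither motif, had 38.7%, the promoters of Mmp11, Mmp14 and Mmp15 had 56.0% to 67.0%, and the median of all promoters was 52.7%. A match of letters is a description and not a measured binding site.

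Among the other 13 MMP genes, 8 had more than 3 reads in a library, and beyond counting error 4 of them were higher in the limbus and 1 was higher in the cornea. Over all 15572 genes these shares were 35.5% and 36.7%. The largest in reads was Mmp28, the epilysin gene of keratinocytes, with 528 corneal and 271 limbal reads and a log2 ratio of -0.87 (95% interval -1.08 to -0.65). Mmp23 had 85 and 338 reads, a log2 ratio of 2.09 (95% interval 1.74 to 2.45). Mmp17, which encodes another membrane-type MMP, had 0 and 17 reads and was at least 6.06-fold higher in the limbus, taking the count of 0 as 3 reads, and its exact interval began at a log2 ratio of 2.14. Mmp25 had 0 and 7 reads, at least 2.49-fold higher in the limbus on the same basis, but its exact interval began at a log2 ratio of 0.62, which is below 2-fold. Mmp10 and Mmp28 were thus the MMP genes higher in the cornea beyond counting error, the latter with a log2 ratio of -0.66 when scaled to total reads.

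The inhibitors were also mostly higher in the limbus, 5 of 7 beyond counting error and by at least 2-fold, with a median log2 ratio of 2.25. Of all 15572 genes, 35.5% were higher there beyond counting error and 20.8% by at least 2-fold. Timp2 counted 1912 corneal and 6388 limbal reads (log2 ratio 1.84, 95% interval 1.76 to 1.91), and Timp3, whose protein binds to the matrix, had 1290 and 5749 (log2 ratio 2.25, 95% interval 2.16 to 2.34). Timp1 had 2 and 92 reads and Timp4 had 1 and 15, and the membrane-anchored inhibitor gene Reck had 19 and 279 (log2 ratio 3.97, 95% interval 3.30 to 4.73). A2m, which encodes the broad protease trap alpha-2-macroglobulin, went against the list with 23888 corneal and 7030 limbal reads, a log2 ratio of -1.67 (95% interval -1.71 to -1.63). The 4 TIMP genes together had 3100 corneal and 12657 limbal normalized reads. Per kb of exon, the summed TIMP level was 0.508 of the summed level of the 10 MMP genes in the corneal library and 0.344 in the limbal one, and without Mmp3 it was 0.513 and 1.09. Per kb, the direction of this comparison thus turned on Mmp3. In normalized reads not divided by length, the 4 TIMP genes together were 4.08-fold higher in the limbus and the 10 MMP genes 3.17-fold. The direction with Mmp3 included therefore also depended on the division by exon length.

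Activators and cofactors had a median log2 ratio of 0.36 over the 10 genes with more than 3 reads in a library. Of these, 8 exceeded counting error on the limbal side, against 35.5% of all 15572 genes, and none was higher in the cornea, against 36.7%. With scaling to total reads 9 exceeded it on the limbal side, and the share of all genes was not computed for that scaling. Among the 10 genes, 2 were at least 2-fold higher in the limbus, which is near the share of 20.8% over all genes. Those 2 were Plaur, the urokinase receptor gene (14 and 52 reads, log2 ratio 1.99, 95% interval 1.12 to 2.96), and Pcsk5, a convertase gene (20 and 76 reads, log2 ratio 2.02, 95% interval 1.30 to 2.81). Ctsb, the cathepsin B gene, had 9493 and 11406 reads (log2 ratio 0.36, 95% interval 0.32 to 0.40). Bsg, which encodes the MMP inducer basigin, had 8464 and 8909 (log2 ratio 0.17, 95% interval 0.13 to 0.21). Plg, the plasminogen gene, was listed at 0 in both libraries.

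Of the 8 matrix substrate genes described here with more than 3 reads in a library, beyond counting error 7 had the higher value in the limbus and 1 was higher in the cornea, with a median log2 ratio of 2.81. The shares of all 15572 genes were 35.5% and 36.7%. The type I collagen gene Col1a1 counted 13776 corneal and 30674 limbal reads (log2 ratio 1.25, 95% interval 1.22 to 1.28), and Col1a2 had 14627 and 26048 (log2 ratio 0.93, 95% interval 0.90 to 0.96). Fn1, the fibronectin gene, had 7969 and 6325 reads (log2 ratio -0.24, 95% interval -0.29 to -0.19). Under scaling to total reads the log2 ratio of Fn1 was -0.03, within counting error.

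Among inducers and transcription factors of MMP genes, beyond counting error 8 of 13 were higher in the limbus and 3 were higher in the cornea. The shares of all 15572 genes were 35.5% and 36.7%. At least 2-fold higher were Jun and Ets1 in the limbus and Il1a in the cornea, against 20.8% and 8.84% of all genes. The median log2 ratio of the list was 0.29. Those higher in the cornea beyond counting error were the interleukin gene Il1a and the AP-1 genes Fosl2 and Fos. Il1a had 1913 and 665 reads (log2 ratio -1.43, 95% interval -1.56 to -1.30), and Fosl2 had 13272 and 7246 (log2 ratio -0.78). Fos had 1991 and 1502 reads (log2 ratio -0.31, and -0.11 when scaled to total reads). Jun counted 1856 corneal and 4505 limbal reads, a log2 ratio of 1.38 (95% interval 1.30 to 1.45), and Junb had 4947 and 5455, a log2 ratio of 0.24 (95% interval 0.18 to 0.29). AP-1 genes were therefore found on both sides.

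The markers of muscle, vessels, pigment cells and the tissues next to the limbus had median log2 ratios above the 1.71 of the MMP genes. Each of the 6 skeletal muscle genes exceeded counting error on the limbal side, with summed normalized reads of 82.2 (cornea) and 11471 (limbus) and a median log2 ratio of 8.37. The same held for all 6 blood vessel genes (sums 193 and 2528, median 6.50), all 6 smooth muscle and pericyte genes (81.3 and 2246, median 4.75, with Des at 0 in the cornea), all 5 trabecular meshwork and sclera genes (1463 and 10130, median 6.32) and all 5 melanocyte genes (306 and 1644, median 2.52). Among fibroblast genes, 4 of 6 were higher in the limbus, namely Pi16, Clec3b, Col14a1 and Cd34, and Pdgfra and Dpt were higher in the cornea. Among keratocyte genes, 3 of 5 were higher in the cornea, namely Kera, Aldh1a1 and Angptl7, Ptgds was higher in the limbus, and Lum did not differ beyond counting error, but was higher in the limbus (log2 ratio 0.19) when scaled to total reads. Of the neutrophil genes, Mpo and Elane were listed at 0 in both libraries, S100a8 and Csf3r were higher in the limbus, and S100a9 had 850 and 745 reads. The part of these tissues in the MMP differences was not tested.

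**Figure D5:**
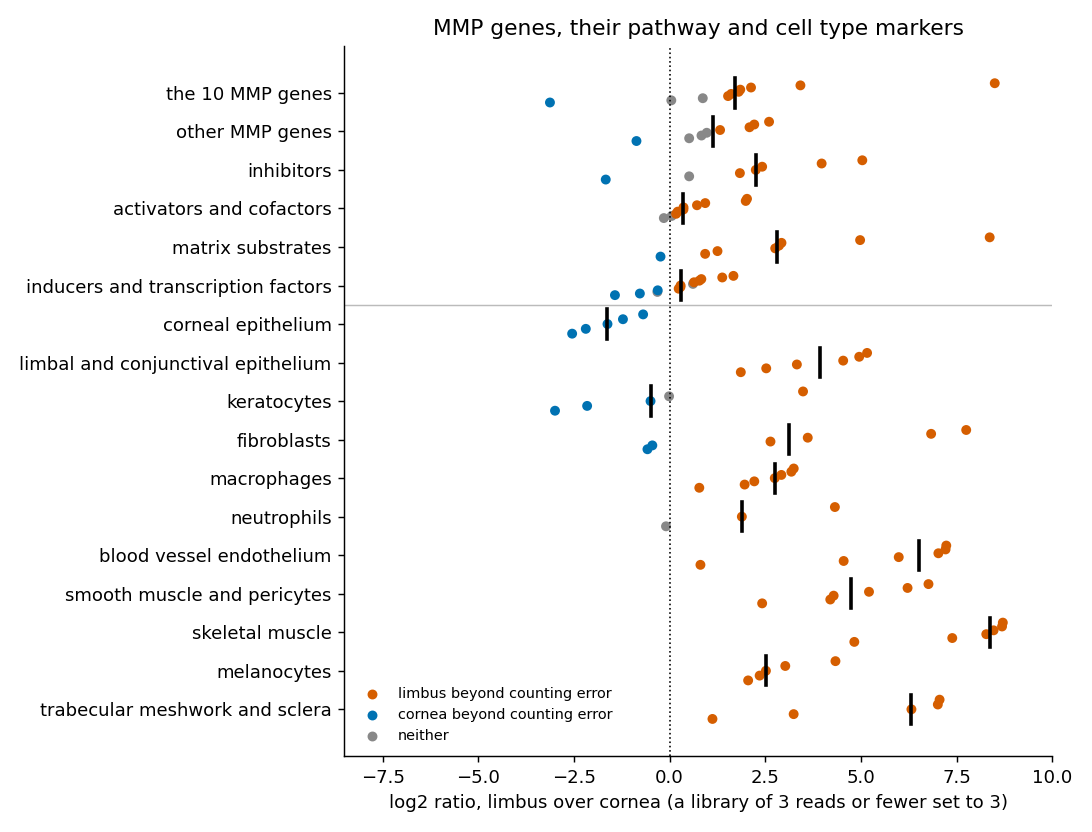
Log2 ratio of limbus over cornea (x axis) of each gene with more than 3 reads in a library, by list, with the list's median as a black bar and the median of 15572 genes as a dotted line, and the gray line parting the MMP pathway from the cell type markers. The median of the 10 MMP genes (1.71) lies below those of the inhibitors (2.25), the matrix substrates and all cell type lists but 2. It lies above those of the corneal epithelium and the keratocytes. Scaling to total reads moves every point by 0.21 to the right.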

How the data were processed

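RNA sequencing of pooled corneal buttons and limbal rims was analyzed from 1 table of the whole series. According to the methods and labels, CLC Genomics Workbench was used for mapping to GRCm38 (mm10), with the trimmed mean of M-values as normalization. The deposited values are named after another program, DESeq, and whether their mean signal was scaled by the trimmed mean is not stated. For every gene the authors deposited a mean normalized signal over both tissues, a log2 fold change (cornea relative to limbus), its standard error (a score in its own unit), p-values and adjusted p-values. The p-values were not used, and the authors' fold changes and errors are not reported. The direction of the deposited log2 fold change was taken from the genes that the study names for each tissue, Kera and Krt19 among them, so these cannot check the tissue labels. There were 0 columns of values per sample, so no depth per labelled sample is known.

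Of 40904 rows, 17484 carry no gene name and stayed out of all totals; their reads were not worked back. Each deposited mean signal is the average of the reads of 2 libraries after division by size factors, 109 cornea reads being worth 102 limbus reads, so whole reads can be worked back. For 6 of the 10 MMP genes, only 1 pair of read numbers gives the deposited mean. For Mmp2, Mmp3, Mmp14 and Mmp15 several do, and the pair was taken whose fold change and standard error, predicted by a negative binomial model shrunken towards 0, came closest to the deposited ones. It met both to within 5.9e-05 in sum, while the next best pair missed by 0.0039 or more. The dispersion of the model, its measure of spread, was adjusted for each gene and pair to meet the fold change. Mainly the standard error therefore told the pairs apart. Over all 17442 genes with a mean above 0, 17436 were met to within 0.001 in sum. On data made by the same model with known answers for 17066 genes, both read numbers were found for 17059 of them. Genes with only 1 possible pair, as 6143 of the 17442 genes have, are found with certainty. The share found among genes with several pairs was not computed apart, and no change as large as that of Mmp3 was built in. These made data check the working back and not whether the model is the one behind the deposited values. Read numbers are therefore derived values.

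Log2 ratios are limbus over cornea. For medians and for counts of genes at least 2-fold apart, 3 reads stood in for any lower number, while values printed with 1 to 3 reads are plain ratios with their interval. Alternatives were scaling to total reads, the trimmed mean of M-values recalculated on the derived reads (trimming 30% of log ratios and 5% of mean values at each end), pseudocounts of 1 and 10 normalized reads, filters on a mean of at least 10 or 50, the next best pair of read numbers, and the longest transcript as length. The 10 MMP genes are all named. From each pathway list, the genes named are up to 3 with the most normalized reads, those that go against the majority beyond counting error, and those counted as 5 or fewer. The MMP genes and the lists were chosen with earlier results of these data known. The values of 1 gene of the matrix substrate list are not reported here, and it stayed out of that list's counts. Positions, exon lengths and transcripts are from GENCODE M21, and promoters from RefSeq. Rows were matched by gene symbol, because of 18554 named rows whose accession is a RefSeq transcript of the reference, 2 carry an accession of the named gene. Scripts ran under Python 3.11.15 with numpy 2.4.6, scipy 1.17.1, pandas 2.3.3, numba 0.67.0 and matplotlib 3.10.9.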

Additional observations from a re-analysis of the deposited data

How the results depend on the processing

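The median log2 ratio of the 10 MMP genes was 1.71, moved to 1.91 with scaling to total reads, to 1.44 with a pseudocount of 10 normalized reads and to 1.99 with the next best pair of read numbers, an alternative for the median and the counts that was chosen after seeing the data. With the pseudocount of 1, the filters and the trimmed mean of M-values it stayed between 1.60 and 1.82, the mean interval bounds of the middle genes Mmp2 and Mmp15. The number of MMP genes at least 2-fold higher in the cornea was 1, and 0 with a filter on a mean of at least 50, under which Mmp10 was not tested. The number at least 2-fold higher in the limbus was between 5 and 8 under all alternatives, and the number higher there beyond counting error was 7, 9 with scaling to total reads and 8 with the next best pair. With scaling to total reads, the share of all 15572 genes at least 2-fold higher in the limbus was 24.0%, against 20.8% with the main scaling. No called gene changed direction under any alternative of scaling, pseudocount or read pair. The next best pair of read numbers, which met the deposited values less closely, would give log2 ratios of 6.06 for Mmp2, 6.10 for Mmp3, 4.76 for Mmp15 and 0.26 for Mmp14, so the size of these ratios rests on the choice of pair. With a pseudocount of 10, Mmp9 had 1.67 and Mmp10 had -1.62. No paired analysis was possible because the deposited values are not split by numbered sample, and for the same reason no sample could be left out in turn. Depth limits Mmp9, Mmp10, Mmp12 and Mmp13 most, each with fewer than 20 reads in a library.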
